A study of Mus musculus with 20 samples.

Results

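The genes described are 10 transcription factors that pattern the lung, followed in whole perfused lung of 3 mouse genotypes. They are Tbx2, Tbx4, Tbx5, Tcf21, Foxf1, Hoxb6 and Hoxa5, which act mainly in lung mesenchyme, and Nkx2-1, Irx2 and Gata6, which act mainly in lung epithelium. They were taken by name from the 54532 genes of the raw count table, as a set chosen by the measured differences in expression between lungs of the genotypes in these same libraries. Their differences between lung genotypes are therefore given as a description, with no test. The mutants concern Ager, the gene of RAGE (receptor for advanced glycation end products), a cell surface receptor that is abundant on alveolar epithelium.

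Lungs came from 4 Ager-/- mice, in which RAGE is knocked out, from 4 Ager AHA/AHA mice and from 3 wild-type (WT) mice. In the Ager AHA/AHA knock-in, 3 neighbouring arginines of the heparan sulfate-binding site were replaced by alanine, histidine and alanine with Cas9 in C57BL/6J eggs. The labels give the strain of all mice as C57BL/6. No source used here gives the age of the sequenced mice. The lung labels name no treatment, and all 3 lung groups were perfused and frozen before RNA extraction. The series also holds neutrophils of the same genotypes (3 libraries each), washed from air pouches 4 hr after 1 μg of LPS and held by the authors to be over 95% neutrophils. The Ager-/- line was a gift from another laboratory, and no source used here says whether mice of the 3 genotypes were littermates, so line history and the Ager alleles cannot be told apart.

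In the embryo, lung forms as an epithelial tube that grows into a coat of mesenchyme, and the tissues instruct each other through secreted signals. Mesenchymal factors such as Tbx4, Tbx5, Foxf1 and Tcf21 specify fibroblasts, smooth muscle and vessels and keep the signals that drive branching. Nkx2-1 marks the lung field of the foregut and later drives surfactant and alveolar genes, with Gata6 and the Iroquois genes acting in the same epithelium. Many of these factors stay on in the adult lung, in fibroblasts, pericytes, capillary endothelium or alveolar cells.

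Depth was 16764589 to 24818703 counts per lung library and 17109497 to 23522678 per neutrophil library. Ager itself gave log2 fold changes of −6.42 for Ager-/- over WT (adjusted p = 3.14e-11, edgeR) and −0.22 for Ager AHA/AHA over WT lung (adjusted p = 0.947). Libraries of all 11 lungs held Y-linked transcripts and almost no Xist (at most 0.974 CPM, counts per 1e6 counts), so they came from males as far as RNA shows. The lung column names are written in capitals for 6 libraries and in lower case for 5, and no source says what this marks. Lung libraries are called below by the number in their label, which is 1, 2, 4 and 5 for Ager-/-.

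Promoter sequence is shown for a pair of genes that were lower and a pair that were higher in Ager-/- than in WT lungs, to set the letters of both kinds side by side. RefSeq promoters matched 5 of the 10 genes, and that of Tbx4 was left out because its RefSeq start lies 10343 bases inside the gene as counted. The RefSeq start of Tcf21 lies 31 bases inside the gene as counted, so the last 31 bases of its window belong to that gene. Each window is the 250 bases before the RefSeq start in GRCm38.p6, 5′ to 3′ on the strand of the gene, and capitals mark every match to a searched motif.
Tcf21 (chr10:22820144-22820393, minus strand): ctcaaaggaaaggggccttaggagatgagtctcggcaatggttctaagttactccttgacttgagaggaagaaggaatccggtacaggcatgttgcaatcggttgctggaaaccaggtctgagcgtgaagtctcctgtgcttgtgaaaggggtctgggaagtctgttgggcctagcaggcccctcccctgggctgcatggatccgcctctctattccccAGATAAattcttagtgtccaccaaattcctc
Hoxa5 (chr6:52204588-52204837, minus strand): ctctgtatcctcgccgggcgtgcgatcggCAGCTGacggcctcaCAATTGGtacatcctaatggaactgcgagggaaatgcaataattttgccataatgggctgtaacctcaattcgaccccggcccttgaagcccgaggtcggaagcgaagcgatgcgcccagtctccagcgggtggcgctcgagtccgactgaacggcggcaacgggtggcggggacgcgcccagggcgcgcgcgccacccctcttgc
Nkx2-1 (chr12:56536909-56537158, minus strand): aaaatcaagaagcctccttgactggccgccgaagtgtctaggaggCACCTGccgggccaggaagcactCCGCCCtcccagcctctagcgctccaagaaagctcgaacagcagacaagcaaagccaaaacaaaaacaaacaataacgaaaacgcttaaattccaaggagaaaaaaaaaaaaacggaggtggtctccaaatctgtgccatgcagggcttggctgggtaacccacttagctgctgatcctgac
Irx2 (chr13:72628570-72628819, plus strand): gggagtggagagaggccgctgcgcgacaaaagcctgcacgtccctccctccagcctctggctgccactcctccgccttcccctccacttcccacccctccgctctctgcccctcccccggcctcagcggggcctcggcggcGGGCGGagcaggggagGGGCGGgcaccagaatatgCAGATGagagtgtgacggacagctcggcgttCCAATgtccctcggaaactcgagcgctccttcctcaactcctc
The 10 motifs, searched on both strands, were CANNTG (E-box), AGGTGTNA (T-box half-site), TGTTTAC (forkhead), AGATAA (the site of GATA factors), CAAGTG (NKX2), CTTTGAT (TCF/LEF), TAATNA (homeodomain core), GGGCGG (the GC box), TATAAA (the TATA box) and CCAAT (the CCAAT box). The Tcf21 window held 1 match, AGATAA at 31 to 26 bases before the start, which 9.99% of all 32851 windows of this length hold. The windows of Hoxa5, Nkx2-1 and Irx2 each held an E-box, as did 66.2% of all windows. Those of Nkx2-1 and Irx2 held the GC box (32.7% of all), and those of Hoxa5 and Irx2 the CCAAT box (33.8% of all), which in Hoxa5 overlaps an E-box. No T-box, forkhead, NKX2, TCF/LEF or TAATNA letters stood in these 4 windows. A match of letters is not a binding site.

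In lungs of Ager-/- mice, all 7 mesenchymal factors had lower mean levels than in WT lungs, and all 3 epithelial factors had higher ones, of which Gata6 changed sign in 1 of 19 refits. The lowest ratio was that of Tcf21, at 0.331 of the WT level, followed by Hoxb6 (0.490), Hoxa5 (0.609) and Tbx4 (0.616). The highest were those of Irx2 (1.55) and Nkx2-1 (1.40). In Ager AHA/AHA lungs the 10 genes stayed between 0.904 and 1.13 times the WT level. Since bulk lung was sequenced, fewer cells of a type and less RNA per cell cannot be told apart.

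**Figure D1:**
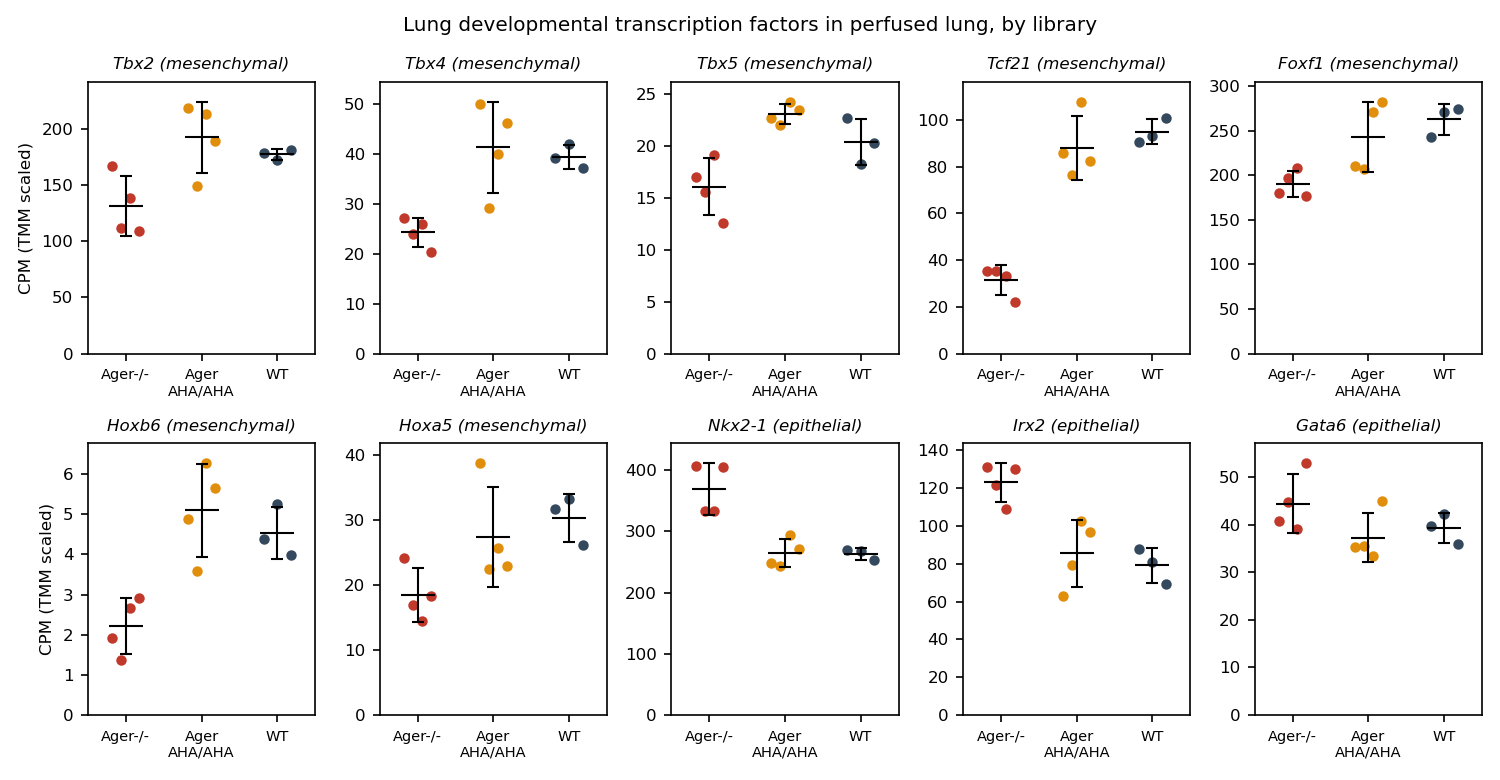
CPM of the 10 transcription factors in each lung library, one panel per gene. Points are libraries (4 Ager-/-, 4 Ager AHA/AHA, 3 WT), the horizontal bar is the mean and the error bar the SD, and each axis starts at 0. The 4 Ager-/- points of Tcf21 lie between 22.0 and 35.3 CPM, under all other libraries, and those of Nkx2-1 lie between 332 and 407 CPM, above all others.

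Tcf21 is a basic helix-loop-helix factor needed in mouse for lung, kidney and spleen mesenchyme, and in adult lung it marks lipid-storing fibroblasts. It lies on chromosome 10 (22817281 to 22820174, minus strand, mm10). Its level was 35.3, 35.2, 33.3 and 22.0 CPM in Ager-/- lungs 1, 2, 4 and 5, against 86.1, 76.5, 108 and 82.5 CPM in the Ager AHA/AHA lungs and 90.8, 93.3 and 101 CPM in the WT lungs. All 4 Ager-/- libraries lay under all 7 others, with a wide gap. The log2 fold change was −1.60 (SE 0.152) for Ager-/- over WT, −1.49 (SE 0.144) for Ager-/- over Ager AHA/AHA and −0.11 (SE 0.150) for Ager AHA/AHA over WT. By absolute log2 fold change for Ager-/- over WT it ranked 172 among the 17458 genes tested in lung. The antisense gene Gm10824 overlaps Tcf21 and had 8 to 30 counts per lung library, against 430 to 2175 counts for Tcf21. No source used here says whether counting used strand, but this overlap is small beside the counts of Tcf21.

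The T-box factors Tbx2, Tbx4 and Tbx5 are expressed in mouse lung mesenchyme, where Tbx4 and Tbx5 together drive branching and Tbx2 keeps cells dividing. Tbx2 (chromosome 11, 85832551 to 85841948) and Tbx4 (85886422 to 85916097) stand side by side, 44474 bases apart and both on the plus strand. Tbx5 lies on chromosome 5 (119832668 to 119885219, plus strand).

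Tbx4 was at 27.1, 23.9, 25.9 and 20.4 CPM in Ager-/- lungs, 50.1, 29.2, 40.0 and 46.3 CPM in Ager AHA/AHA lungs and 39.2, 42.0 and 37.3 CPM in WT lungs. The Ager-/- libraries did not overlap with either other group, though Ager AHA/AHA lung 2 came within a few CPM of them. Tbx2 was at 167, 112, 138 and 109 CPM in Ager-/- lungs, 219, 149, 213 and 189 CPM in Ager AHA/AHA lungs and 179, 172 and 181 CPM in WT lungs. Here the highest Ager-/- library was just under the lowest WT library and above the lowest Ager AHA/AHA library. Tbx5 was at 17.0, 15.6, 19.1 and 12.6 CPM in Ager-/- lungs, 22.7, 22.0, 24.2 and 23.4 CPM in Ager AHA/AHA lungs and 22.7, 18.2 and 20.3 CPM in WT lungs. Tbx5 of Ager-/- lung 4 lay above WT lung 2, so these groups overlapped. The log2 fold changes for Ager-/- over WT were −0.70 (SE 0.154) for Tbx4, −0.43 (SE 0.151) for Tbx2 and −0.34 (SE 0.135) for Tbx5. Over Ager AHA/AHA they were −0.77 (SE 0.144), −0.55 (SE 0.141) and −0.52 (SE 0.125) in the same order of genes. Tbx5 is also a heart factor, and cardiac markers varied between the lung libraries. The summed CPM of 10 cardiac markers ran from 173 to 548 in Ager-/- lungs, 284 to 1159 in Ager AHA/AHA lungs and 156 to 855 in WT lungs, and its part in the values of Tbx5 and Gata6 was not tested.

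Foxf1, a forkhead factor of lung capillaries and mesenchyme that answers to hedgehog signals, lies on chromosome 8 (121084386 to 121088144, plus strand). It was the most abundant mesenchymal factor of the 10 per length, at 78.9 ± 6.04 CPM per kb in Ager-/- lungs (SD, n = 4), 101 ± 16.3 in Ager AHA/AHA lungs (n = 4) and 109 ± 7.04 in WT lungs (n = 3). By library it was at 181, 197, 208 and 176 CPM in Ager-/- lungs, 211, 207, 271 and 283 CPM in Ager AHA/AHA lungs and 243, 271 and 274 CPM in WT lungs. The Ager-/- and WT libraries did not overlap, while Ager AHA/AHA lungs 1 and 2 sat near the top of the Ager-/- range and lungs 3 and 4 with WT. Its log2 fold change was −0.46 (SE 0.120) for Ager-/- over WT and −0.35 (SE 0.112) for Ager-/- over Ager AHA/AHA.

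The homeobox genes Hoxa5 and Hoxb6 mark position along the body axis, and in mouse Hoxa5 in the mesenchyme is needed for normal airways and alveoli. Hoxa5 (chromosome 6, 52201754 to 52204587, minus strand) was at 24.2, 16.9, 14.5 and 18.4 CPM in Ager-/- lungs, 38.8, 22.4, 25.7 and 22.9 CPM in Ager AHA/AHA lungs and 31.6, 33.2 and 26.2 CPM in WT lungs. The Ager-/- libraries lay under all WT libraries, but Ager-/- lung 1 overlapped with the Ager AHA/AHA group. Hoxb6 (chromosome 11, 96292476 to 96301569, plus strand) was the lowest of the 10, with 27 to 137 counts per lung library. It was at 1.91, 1.38, 2.66 and 2.91 CPM in Ager-/- lungs, 4.87, 3.59, 6.27 and 5.65 CPM in Ager AHA/AHA lungs and 4.38, 5.25 and 3.99 CPM in WT lungs, with no overlap of the Ager-/- libraries with either other group. Their log2 fold changes for Ager-/- over WT were −0.72 (SE 0.199) for Hoxa5 and −1.03 (SE 0.270) for Hoxb6, the widest error of the 10. Over Ager AHA/AHA they were −0.57 (SE 0.187) and −1.20 (SE 0.254). Hoxa5 overlaps Hoxa3 (50 to 157 counts) and the antisense Hoxaas3 (7 to 45 counts), and Hoxb6 overlaps the antisense Hoxb5os (8 to 39 counts), so a share of the reads of these Hox genes may be assigned to the wrong gene.

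Nkx2-1, the homeodomain factor that defines lung and thyroid in the foregut and drives surfactant genes, was the most abundant epithelial factor. It lies on chromosome 12 (56531958 to 56536908, minus strand). Its level was 407, 334, 332 and 404 CPM in Ager-/- lungs, 248, 244, 294 and 270 CPM in Ager AHA/AHA lungs and 270, 267 and 253 CPM in WT lungs. The 4 Ager-/- libraries were above all 7 others. Within Ager-/-, lungs 1 and 5 stood above lungs 2 and 4. The log2 fold change was 0.49 (SE 0.109) over WT and 0.48 (SE 0.0999) over Ager AHA/AHA, and 0.01 (SE 0.108) for Ager AHA/AHA over WT. Nkx2-1 is also a thyroid gene, and thyroglobulin (Tg) was at 0.959 ± 0.620 CPM in Ager-/- lungs (SD, n = 4) and 0.698 ± 0.553 CPM in WT lungs (n = 3), close to 0 in both groups. Of 4 thyroid-list genes tested, 1 was called higher for Ager-/- over WT, where 1.45% of all genes were. It was Slc26a4, an anion exchanger (log2 fold change 2.01, edgeR adjusted p = 0.0230). The sum of 6 thyroid-list genes was 9.67 to 13.8 CPM in Ager-/- lungs, 3.95 to 9.41 CPM in Ager AHA/AHA lungs and 3.07 to 6.04 CPM in WT lungs. Slc26a4 itself averaged 9.93 ± 1.73 CPM in Ager-/- lungs and 2.48 ± 1.22 CPM in WT lungs. The part of thyroid tissue in the values of Nkx2-1 was not tested.

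Irx2, an Iroquois homeobox gene of the developing airway epithelium, lies on chromosome 13 (72628820 to 72634198, plus strand). It was at 131, 122, 109 and 130 CPM in Ager-/- lungs, 63.2, 79.3, 103 and 97.0 CPM in Ager AHA/AHA lungs and 87.8, 80.7 and 69.4 CPM in WT lungs. Ager-/- again stood above every other library, with Ager AHA/AHA lung 3 the nearest. The log2 fold change was 0.63 (SE 0.147) over WT and 0.53 (SE 0.134) over Ager AHA/AHA. Gata6, a zinc finger factor of distal lung epithelium and of heart, lies on chromosome 18 (11052508 to 11085635, plus strand). It was at 40.8, 44.8, 39.0 and 52.9 CPM in Ager-/- lungs, 35.2, 35.6, 33.4 and 44.9 CPM in Ager AHA/AHA lungs and 39.7, 42.3 and 35.8 CPM in WT lungs. Its 3 groups overlapped, with a log2 fold change of 0.18 (SE 0.127) for Ager-/- over WT.

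**Figure D2:**
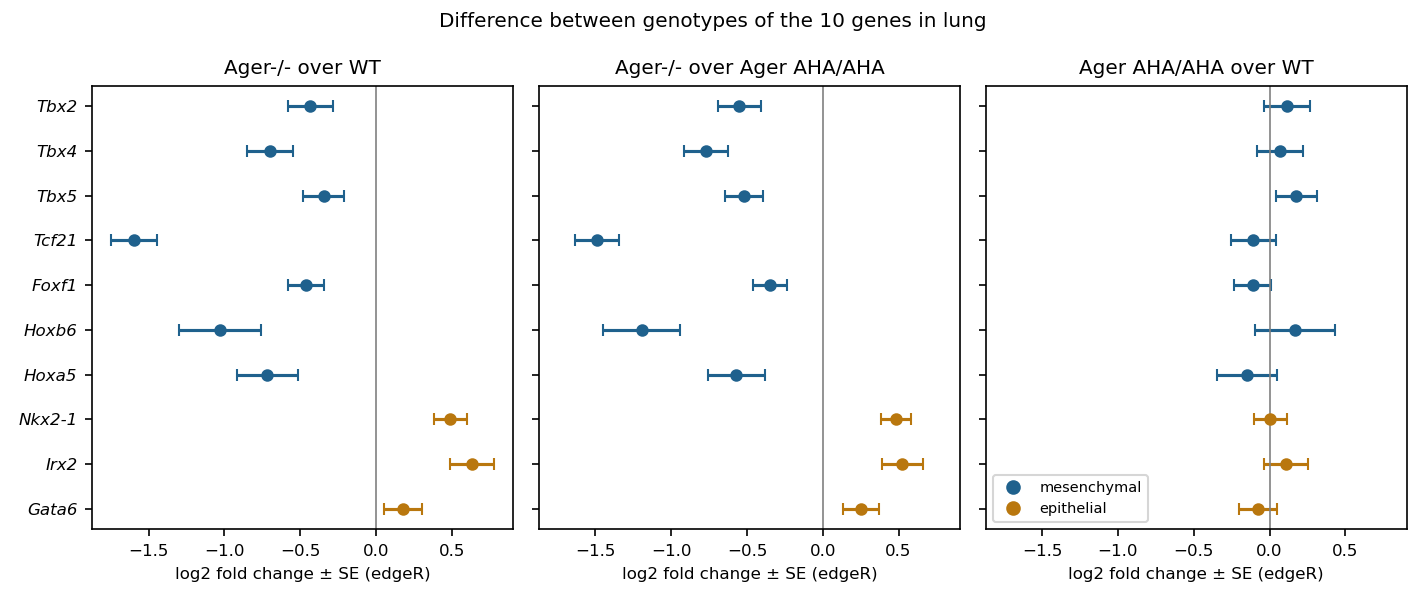
log2 fold change of the 10 genes in 3 lung comparisons, with bars of 1 SE from edgeR. Mesenchymal genes are blue and epithelial genes brown. In both comparisons with Ager-/- on top, the 7 mesenchymal genes lie left of 0 and the 3 epithelial genes right of it, whereas for Ager AHA/AHA over WT all 10 lie between −0.15 and 0.18.

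In the fit over all 17458 genes, which is no independent test of genes chosen on these values, 4 of the 10 had an adjusted p under 0.05 for Ager-/- over WT (2 lower, 2 higher), where 3.1% of all genes did. Against Ager AHA/AHA, 7 of 10 did in Ager-/-, where 3.16% of all genes did. For Ager AHA/AHA over WT 0 of 10 did, where 0.172% of all genes did. Groups did not overlap for 8, 6 and 0 of the 10 in these comparisons, against 15.8%, 8.27% and 4.74% of all genes. Because the genes were chosen with these comparisons known, nothing is read from these counts. The 2 comparisons with WT share the WT libraries and those with Ager-/- share its libraries. With the replicate number as a block the count for Ager-/- over Ager AHA/AHA was 6 of 10, and 3 genes crossed the threshold. Tbx5 (log2 fold change −0.42) and Irx2 (0.52) were no longer under it, and Hoxa5 (−0.60) came under it. The count for Ager-/- over WT was 1 without WT lung 1, WT lung 2, WT lung 3 or Ager-/- lung 5, and 2 without Ager-/- lung 2. Against Ager AHA/AHA it was 4 without any one of Ager AHA/AHA lungs 1 and 3 and Ager-/- lungs 1, 2 and 5.

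Compared per length, the order of the levels differed between Ager-/- and WT lungs. In WT lungs it ran Foxf1, Nkx2-1, Tbx2, Tcf21, Irx2, Hoxa5, Tbx4, Gata6, Tbx5 and Hoxb6, and no neighbouring pair overlapped between libraries. In Ager-/- lungs Nkx2-1 (130 ± 14.8 CPM per kb, SD, n = 4) stood above Foxf1 (78.9 ± 6.04), and Irx2 (37.5 ± 3.11) came to the level of Tbx2 (36.2 ± 7.43), with which it overlapped. Tcf21 overlapped with Hoxa5 there, at 13.4 ± 2.72 and 9.85 ± 2.20 CPM per kb in Ager-/- lungs, against 40.4 ± 2.25 and 16.2 ± 1.97 CPM per kb in WT lungs (n = 3). Gata6 (7.94 ± 1.11) stood above Tbx4 (7.15 ± 0.865) in Ager-/- lungs, with overlap, against 7.02 ± 0.581 for Gata6 and 11.6 ± 0.703 for Tbx4 in WT lungs, without overlap. In Ager AHA/AHA lungs the order was that of WT, but Foxf1 overlapped with Nkx2-1, Tbx2 with Tcf21, Irx2 with Hoxa5 and Hoxa5 with Tbx4.

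Some libraries were the lowest of their group for many members. Ager AHA/AHA lung 2 was the lowest of its group for 7 of 7 mesenchymal factors, and Ager-/- lung 5 was the lowest of its group for 5 of 7. Among epithelial factors, Ager-/- lung 4 and WT lung 3 were the lowest of their groups for 3 of 3. The lowest WT lung differed between mesenchymal factors (2, 2 and 3 of the 7 in WT lungs 1, 2 and 3), and the 3 epithelial factors each had another lowest Ager AHA/AHA lung. The coefficient of variation of Tbx2 was 20.5% in Ager-/-, 16.5% in Ager AHA/AHA and 2.66% in WT lungs. That of Nkx2-1 was 11.4% in Ager-/-, 8.69% in Ager AHA/AHA and 3.49% in WT lungs. WT lungs, of which there were 3, did not vary least for every gene. For Irx2 the coefficient was 8.29%, 21.0% and 11.7% in the same order of groups, and for Tbx5 16.9%, 4.27% and 10.9%. Within the libraries with capitals in their column names and within those in lower case, 7 of 10 genes were lower and 3 higher in Ager-/- than in WT, the same split as overall. The log2 ratio of means of Tcf21 was −1.38 within the names in capitals and −1.87 within those in lower case, which hold 1 WT library.

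Markers of the cell types in which these factors are known to act were summed in each library. Summed over 14 fibroblast markers, CPM were 1855 to 2848 in Ager-/- lungs, 2991 to 4437 in Ager AHA/AHA lungs and 3735 to 4477 in WT lungs. Of these 14, 13 had a negative log2 fold change for Ager-/- over WT and 1 passed the test, where 3.1% of all genes did. It was Inmt, an indole methyltransferase abundant in lung fibroblasts (−1.13 ± 0.188 SE on the log2 scale, edgeR adjusted p = 0.00455). Inmt alone made up 38.0% to 61.8% of the sum. Without it, the other 13 summed to 1149 to 1537 CPM in Ager-/- lungs, 1248 to 1964 CPM in Ager AHA/AHA lungs and 1426 to 1736 CPM in WT lungs, groups that overlap. Summed over 8 markers of alveolar type 1 (AT1) cells, the flat cells of gas exchange, CPM were 6065 to 7002 in Ager-/- lungs, 3690 to 5341 in Ager AHA/AHA lungs and 4026 to 5052 in WT lungs. For Ager-/- over WT 3 of 8 were called higher (Akap5, Aqp5 and Cldn18) and 0 lower, where 1.45% and 1.64% of all genes were. Summed over 9 markers of alveolar type 2 (AT2) cells, which make surfactant, CPM overlapped at 40996 to 53309, 39635 to 49044 and 42722 to 48380 in the same order of groups. Of these 9, 8 had a positive log2 fold change for Ager-/- over WT. With edgeR 2 were called higher and 0 lower, where 1.45% and 1.64% of all genes were. They were Abca3 (adjusted p = 0.0349) and Cxcl15 (log2 fold change 0.998, adjusted p = 0.0465).

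Foxf1 is also a gene of capillaries, and 10 endothelial markers summed to 2015 to 2562 CPM in Ager-/- lungs, 2356 to 3280 CPM in Ager AHA/AHA lungs and 2548 to 2748 CPM in WT lungs. Of these 10, 9 had a negative log2 fold change for Ager-/- over WT. With edgeR 1 was called lower there (Emcn), where 1.64% of all genes were. Over Ager AHA/AHA, 3 of 10 endothelial and 4 of 14 fibroblast markers were called lower, where 1.79% of all genes were. In that comparison 4 of 8 AT1 markers were called higher, where 1.37% of all genes were, and 0 of 9 AT2 markers were called.

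Set against the fibroblast markers of the same library, Tcf21 was still lower in Ager-/- lungs, at 13.0 ± 1.34 CPM per 1000 marker CPM (SD, n = 4), against 23.8 ± 4.94 in Ager AHA/AHA lungs (n = 4) and 24.0 ± 3.42 in WT lungs (n = 3), with no overlap. The ratio of Ager-/- to WT was 0.543 on this scale, and 0.404 with Inmt left out of the markers, a choice made after the values were seen. The other 6 mesenchymal factors had ratios from 0.852 (Hoxb6) to 1.32 (Tbx5) against the 14 markers and from 0.620 (Hoxb6) to 0.971 (Tbx5) without Inmt, and in the second case all 6 overlapped between Ager-/- and WT. Against the 14 markers Tbx5 lay above WT in all 4 Ager-/- lungs. Nkx2-1 and Irx2 set against AT1 and AT2 markers together were 1.31 and 1.45 times their WT values, both without overlap of Ager-/- and WT. Both overlapped between Ager-/- and Ager AHA/AHA lungs on this scale. Nkx2-1 was at 5.58 to 8.45 per 1000 marker CPM in Ager-/- and 4.97 to 6.18 in Ager AHA/AHA lungs. Irx2 was at 1.95 to 2.72 and 1.27 to 2.16 in the same groups. Gata6 was 1.06 times its WT value, with overlap. Most of the AT1 and AT2 divisor was the AT2 sum, and the surfactant gene Sftpc made up most of that sum. Sftpc was at 32542 ± 4372 CPM in Ager-/- lungs (SD, n = 4) and 32546 ± 2718 CPM in WT lungs (n = 3). The AT1 sum was higher in Ager-/- lungs, with a median of 6629 CPM against 4763 CPM in WT lungs. It was not used alone, so whether Nkx2-1 and Irx2 were higher against AT1 markers was not tested. The part of cell makeup in the values of the 10 genes was not tested.

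**Figure D3:**
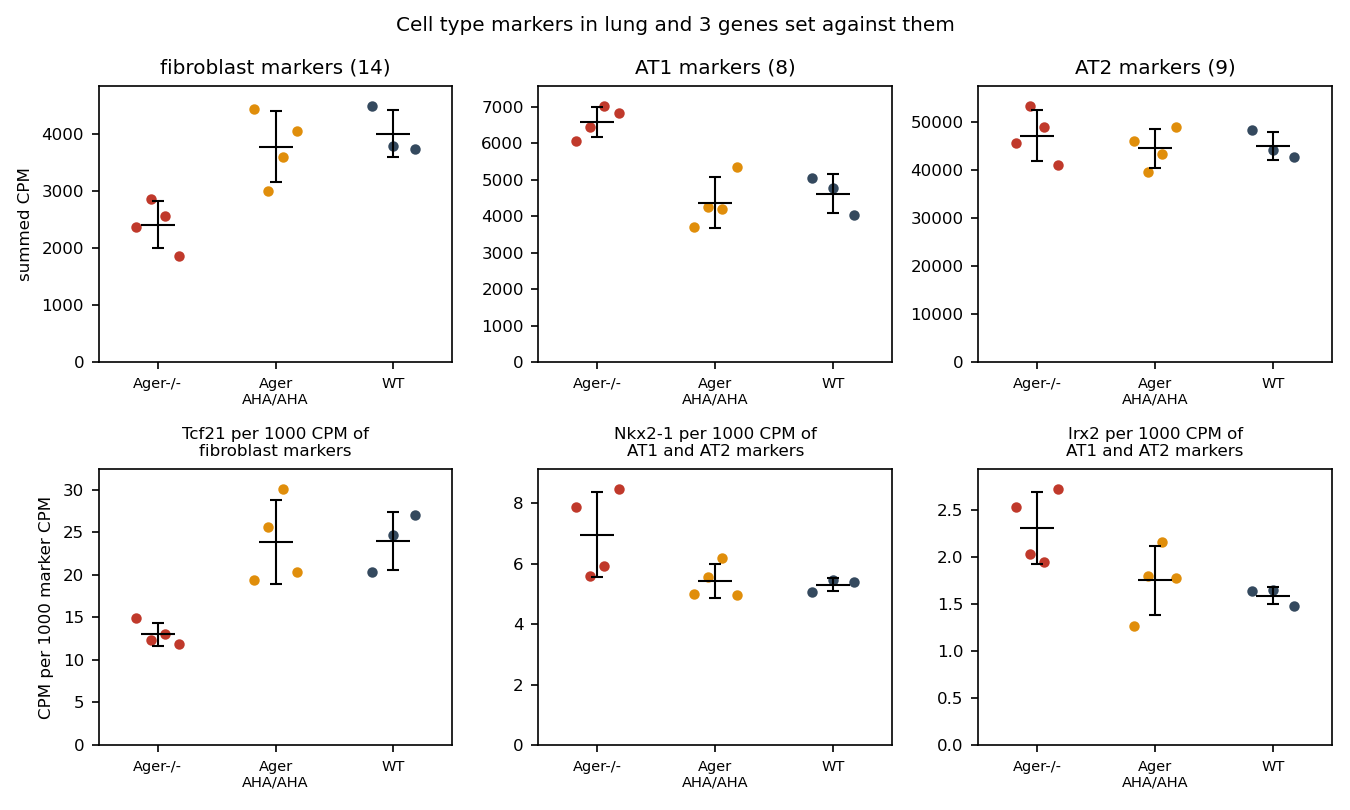
Top, summed CPM of fibroblast, AT1 and AT2 markers by lung library. Bottom, Tcf21 per 1000 CPM of fibroblast markers and Nkx2-1 and Irx2 per 1000 CPM of AT1 and AT2 markers. Points are libraries, bars are means with SD, and axes start at 0. The 4 Ager-/- libraries lie lowest for fibroblast markers and highest for AT1 markers, and Tcf21 stays lower (11.8 to 14.9 in Ager-/-, 20.3 to 27.0 in WT) after this scaling.

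Lists of 205 related genes were drawn up with earlier results of these lungs known, and 163 of them were tested. Nothing is therefore read from the counts of these lists, here or below. For Ager-/- over WT 3 of the 163 were higher and 9 lower, where 1.45% and 1.64% of all 17458 genes were called in these directions. Over Ager AHA/AHA, 2 were higher and 10 lower, where 1.37% and 1.79% of all were called. For Ager AHA/AHA over WT 0 were called with edgeR and 0 with DESeq2, and 3 had an unadjusted p under 0.05 (4.63% of all genes did). The median log2 fold change of all genes was 0.01 for Ager-/- over WT.

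Among 50 tested signalling genes of lung development, 0 rose and 7 fell for Ager-/- over WT, where 3.1% of all genes were called, with a median of −0.03. Wnt2, a mesenchymal ligand that calls up Nkx2-1 in the mouse foregut, was at 7.18, 7.92, 9.36 and 5.05 CPM in Ager-/- lungs, 14.37, 11.66, 11.96 and 13.89 CPM in Ager AHA/AHA lungs and 13.65, 13.96 and 13.36 CPM in WT lungs. All 4 Ager-/- libraries lay under the 7 others (−0.89 ± 0.175 SE over WT on the log2 scale, edgeR adjusted p = 0.0124). Axin2, a feedback inhibitor and target of canonical Wnt signalling, fell by 0.67 on the log2 scale (SE 0.131, adjusted p = 0.0115), and Dkk3, a secreted protein of the Dickkopf family, by 0.82 (SE 0.117, adjusted p = 0.0012). Axin2 was at 17.9, 14.8, 14.2 and 13.7 CPM in Ager-/- lungs, against 23.0, 27.7 and 21.9 CPM in WT lungs. Itga8, an integrin subunit of mesenchyme, fell by 0.72 (SE 0.150, adjusted p = 0.0189). The other 3, named after their values were seen, were Fgf7, a mesenchymal growth factor for epithelium (log2 fold change −0.995, adjusted p = 0.0367), Hhip, which binds hedgehog ligands (−0.99, adjusted p = 0.0350), and Lef1, a transcription factor of Wnt signalling (−0.95, adjusted p = 0.0498). Dkk3, Axin2, Wnt2 and Itga8 also fell for Ager-/- over Ager AHA/AHA, by 0.91, 0.68, 0.81 and 0.61. In that comparison Hhip was called too (−0.87, adjusted p = 0.0478), though not with the replicate block (adjusted p = 0.0965). Fgf7 was called there with the block (−0.65, adjusted p = 0.0199) and not without it.

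Of 33 other mesenchymal transcription factors tested, 1 fell and 0 rose for Ager-/- over WT (3.03% called, where 3.1% of all genes were). Of the 33, 22 were negative and 11 positive, with a median of −0.14. The one was Meox2, a homeobox factor of muscle and vessel, at 10.3, 6.08, 7.18 and 4.95 CPM in Ager-/- lungs, 17.7, 11.7, 11.8 and 12.5 CPM in Ager AHA/AHA lungs and 17.03, 14.33 and 12.01 CPM in WT lungs (−1.02 ± 0.226 SE on the log2 scale, edgeR adjusted p = 0.0238). The Ager-/- libraries lay under all others, while the Ager AHA/AHA and WT groups overlapped. Meox2 and Foxf2, a close relative of Foxf1, fell over Ager AHA/AHA by 0.91 (adjusted p = 0.0291) and 0.64 (adjusted p = 0.0404).

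Of 37 other Hox genes listed, 13 passed the filter on low counts, and all 13 had a negative log2 fold change for Ager-/- over WT, with a median of −0.31. With edgeR 0 of 13 were called and with DESeq2 0, and 3 had an unadjusted p under 0.05 (16.3% of all genes did), namely Hoxa2 (−0.79 ± 0.330 SE on the log2 scale), Hoxa3 (−0.51 ± 0.225) and Hoxb5 (−0.49 ± 0.192), named after their values were seen. Over Ager AHA/AHA, 10 of 13 were negative with a median of −0.39, with 0 called by edgeR, 3 called lower by DESeq2 and 3 at an unadjusted p under 0.05 (13.7% of all genes). For Ager AHA/AHA over WT 8 of the 13 were positive, with a median of 0.14. Of 19 relatives of the T-box, forkhead, GATA and Iroquois families tested, 1 fell for Ager-/- over WT, where 3.1% of all genes were called. It was Gata5 (−1.03 ± 0.211 SE on the log2 scale, edgeR adjusted p = 0.0156), a relative of Gata6 known from heart and smooth muscle. Gata5 was at 7.35, 6.39, 7.79 and 6.79 CPM in Ager-/- lungs, against 19.3, 13.0 and 11.1 CPM in WT lungs.

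On the epithelial side, 1 of 36 other factors was called for Ager-/- over WT (2.78%, where 3.1% of all genes were). It was Foxp4, a forkhead repressor of airway and alveolar fates, which rose by 0.56 (SE 0.126, edgeR adjusted p = 0.0264). In all 25 of the 36 were positive and the median was 0.15. Of 15 genes known to be regulated by Nkx2-1, 2 rose and 0 fell, where 3.1% of all genes were called, with 12 positive and a median of 0.12. These were Cldn18, a tight junction protein of alveolar cells, and Abca3, the lipid transporter of AT2 lamellar bodies. Both are also among the markers above, Cldn18 for AT1 and Abca3 for AT2 cells, so these are the same calls given again. The divisor used for Nkx2-1 above thus holds genes that it regulates. Cldn18 was at 1657 ± 142 CPM in Ager-/- lungs (SD, n = 4), 878 ± 174 CPM in Ager AHA/AHA lungs (n = 4) and 1030 ± 126 CPM in WT lungs (n = 3), or 0.69 ± 0.151 SE over WT on the log2 scale (edgeR adjusted p = 0.0230). Abca3 was at 304 ± 59.4 CPM in Ager-/- lungs and 187 ± 31.1 CPM in WT lungs (log2 fold change 0.70, adjusted p = 0.0349). Cldn18 rose over Ager AHA/AHA by 0.92 (adjusted p = 0.00164). Hopx, a homeodomain protein of AT1 cells, rose there by 0.49 (adjusted p = 0.0372, and adjusted p = 0.0700 with the replicate block). In that comparison Sox11 fell by 0.85 (adjusted p = 0.0303), and the GATA factor Gata2, known from endothelium and blood, fell by 0.64 (adjusted p = 0.0377).

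The counts of related genes rested on single libraries. The 12 called for Ager-/- over WT became 2 without WT lung 1, 6 without WT lung 2 and 7 without WT lung 3, and 7, 7 and 4 without Ager-/- lungs 2, 4 and 5. Dkk3 kept its call under all 19 alternatives in both comparisons with Ager-/- on top. Axin2 lost it over WT without WT lung 2 and with the replicate block, and Wnt2 without WT lung 1. Gata5 lost it over WT without WT lung 1 or Ager-/- lung 5, Itga8 without WT lung 1 or 2, and Foxp4 without WT lung 1 or 3 or Ager-/- lung 5. Meox2 and Hhip lost it without WT lung 1 or 2 or Ager-/- lung 2, 4 or 5, and Cldn18 without WT lung 1 or 3 or the same Ager-/- lungs. Abca3 lost it without WT lung 1 or 3 or Ager-/- lung 4 or 5, Fgf7 without any WT lung, Ager AHA/AHA lung 3 or Ager-/- lung 2, 4 or 5, and Lef1 without these or Ager AHA/AHA lung 1. The 12 called for Ager-/- over Ager AHA/AHA became 5 and 4 without Ager AHA/AHA lungs 1 and 3, 22 without lung 2, and 4, 7 and 5 without Ager-/- lungs 2, 4 and 5, and Dkk3, Cldn18, Axin2 and Wnt2 kept their calls under all 19 alternatives. The other 8 lost theirs over Ager AHA/AHA in each case without Ager AHA/AHA lung 3 and without Ager-/- lung 2, among others.

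**Figure D4:**
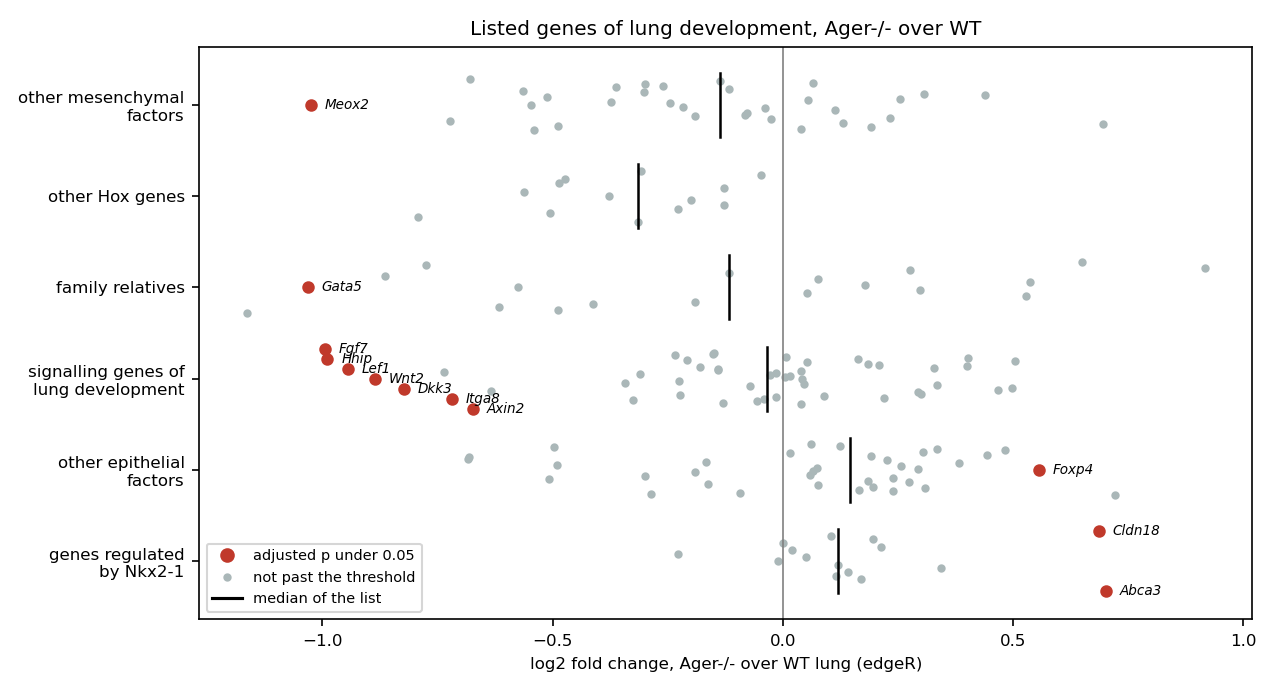
log2 fold change for Ager-/- over WT lung of each tested gene in 6 lists of lung development. Red points, labelled, have an adjusted p under 0.05 from edgeR, grey points do not, and black lines are list medians. All 13 other Hox genes lie left of 0, and the 9 called lower genes are spread over 3 lists.

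Around the 10 genes, 50 other tested genes have their start within 200 kb, some near more than one of them. For Ager-/- over WT 36 were negative and 14 positive. The negative ones include Hox genes near Hoxa5 and Hoxb6 that the list of other Hox genes counts too. With edgeR 1 of the 50 was called, where 3.1% of all genes were, and 9 had an unadjusted p under 0.05, where 16.3% of all genes did. The called one was Gm43050, a long noncoding RNA that starts 0.748 kb from Tbx5 on the other strand (−1.06 ± 0.266 SE on the log2 scale, edgeR adjusted p = 0.0414). It had 41 to 176 counts per lung library, at 3.43 ± 1.45 CPM in Ager-/- lungs (SD, n = 4), 6.32 ± 1.03 CPM in Ager AHA/AHA lungs (n = 4) and 7.12 ± 0.533 CPM in WT lungs (n = 3). The call was lost without any one of WT lungs 1, 2 and 3, Ager AHA/AHA lungs 1 and 3 and Ager-/- lungs 2, 4 and 5, and with the replicate block. With DESeq2, 1 of the 50 was called higher and 3 lower for Ager-/- over WT. In Ager-/- over Ager AHA/AHA lungs, edgeR called 0 of the 50 (10 at an unadjusted p under 0.05, where 13.7% of all genes were) and DESeq2 4, all lower. For Ager AHA/AHA over WT both tools called 0, with 2 at an unadjusted p under 0.05 (4.63% of all genes).

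Noncoding genes that start within 2 kb of a member, on the opposite strand, were found for 6 of the 10, a set looked at after values were seen and so given without a test. Their log2 fold changes for Ager-/- over WT had the sign of their neighbour for 5 of 6. They were −0.51 (SE 0.279) for 2610027K06Rik beside Tbx2, −0.11 (SE 0.286) for Fendrr beside Foxf1, 0.35 (SE 0.138) for Gm26973 beside Nkx2-1 and 0.82 (SE 0.227) for Gm20554 beside Irx2, besides Gm43050 beside Tbx5. The sixth, 1010001N08Rik beside Gata6, was at −0.20 (SE 0.237). Fendrr, a long noncoding RNA that in mouse is needed in lateral mesoderm, was the most abundant of them, at 101 ± 23.0 CPM in Ager-/- lungs (SD, n = 4), 132 ± 41.6 CPM in Ager AHA/AHA lungs (n = 4) and 109 ± 40.6 CPM in WT lungs (n = 3), wide spreads that overlap. Gm26973 and 1010001N08Rik overlap their neighbours, so without known strand counting their reads and those of Nkx2-1 and Gata6 may be mixed.

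**Figure D5:**
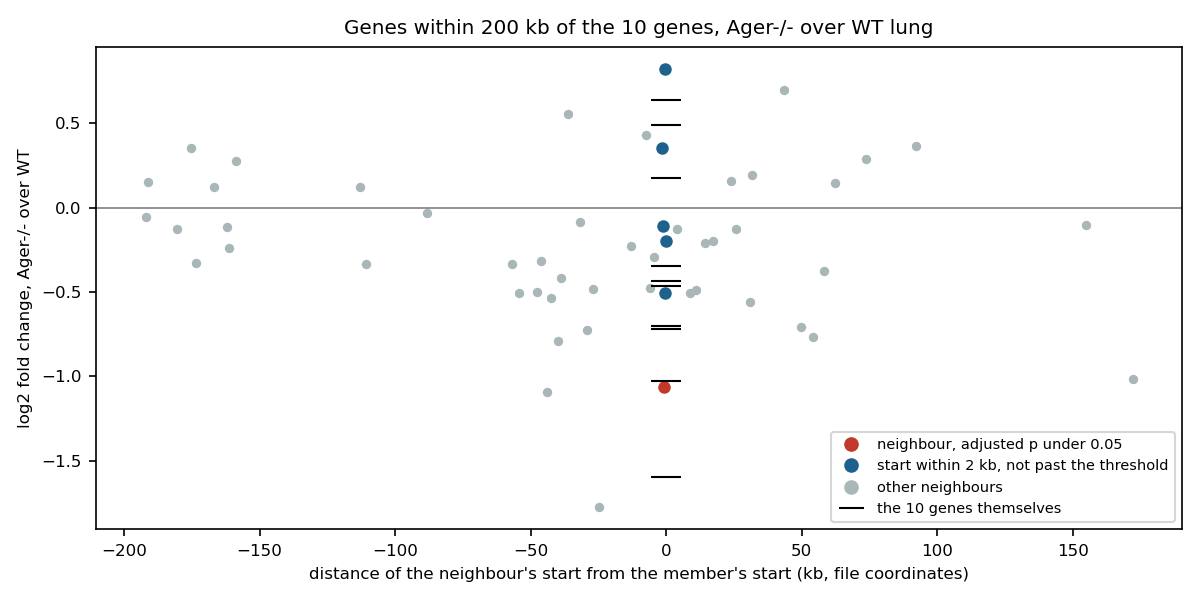
log2 fold change for Ager-/- over WT lung of genes near the 10 genes, against the distance between starts in kb as the file's coordinates give it. A gene near more than 1 of the 10 is drawn for each. The called neighbour is red, others within 2 kb are blue, the rest grey, and short black bars at 0 kb are the 10 genes, from −1.60 to 0.63.

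For the 3 genes with the widest range over the 11 lung libraries (Tcf21 at 2.29, Hoxb6 at 2.11 and Hoxa5 at 1.41 log2 units), the genes with the nearest pattern were those with the smallest root mean square difference of mean-centred log2 CPM. For Tcf21 these were Trpv6, a calcium channel (0.171 log2 units), Gria1, a glutamate receptor subunit (0.241), and Bex4 (0.248). Trpv6 was at 2.18 ± 0.538 CPM in Ager-/- lungs (SD, n = 4), 5.37 ± 0.682 CPM in Ager AHA/AHA lungs (n = 4) and 5.51 ± 0.545 CPM in WT lungs (n = 3). Bex4 was at 30.0 ± 5.57 CPM in Ager-/- lungs, 65.5 ± 5.63 CPM in Ager AHA/AHA lungs and 75.9 ± 12.5 CPM in WT lungs. For Hoxb6 they were Gfra2, a receptor subunit for neurturin (0.247), Gm21092 (0.253) and the metalloproteinase Mmp28 (0.272). For Hoxa5 they were Gpr161, a receptor of the cilium (0.155), H2-Eb2 (0.157) and Id2, an inhibitor of helix-loop-helix factors (0.174). All these nearest genes were lower in Ager-/- than in WT lungs, with log2 fold changes from −1.34 (Bex4) to −0.49 (Id2). The 3 members were picked by a range that holds their own lower values in Ager-/- lungs, so nothing is read from this nearness.

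In neutrophils the 10 genes had few counts or none. Tbx4, Tcf21, Hoxb6, Nkx2-1 and Irx2 had 0 counts in all 9 libraries, which allows up to 3 counts per library. Foxf1 had 7 counts in all, Gata6 7, Hoxa5 10 and Tbx5 2, over the 9 libraries together. Only Tbx2 passed the filter on low counts, with 7 to 34 counts per library, and it was not called in any comparison of genotypes. Its log2 fold change was −0.63 (SE 0.487, edgeR adjusted p = 0.391) for Ager-/- over WT, where 10.7% of 11632 genes were called, and −0.69 (SE 0.476, adjusted p = 0.678) for Ager-/- over Ager AHA/AHA, where 0.533% were called. For Ager AHA/AHA over WT it was 0.06 (SE 0.472, adjusted p = 0.957), where 3.64% were called. In each comparison 0 members were called with edgeR and 0 with DESeq2, and 0 had an unadjusted p under 0.05.

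In lung against neutrophils, over all 20 libraries, 10 of 10 genes were called higher in lung, where 58.8% of 18180 tested genes were. All but Tbx2 entered this fit through their lung counts. Their direction was thus set in advance, and nothing is read from this count. With a floor of 3 counts per library for neutrophils, lung was at least 372-fold higher for Nkx2-1, 120-fold for Irx2, 85.5-fold for Tcf21, 42.7-fold for Tbx4 and 4.80-fold for Hoxb6. Tbx2 was higher by 5.11 ± 0.167 SE on the log2 scale (adjusted p = 3.36e-20), and the lowest lung library was above the highest neutrophil library for 10 of 10 genes. Tissue was confounded here with LPS, given to the pouch only, and with extraction from cells or from frozen organ.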

How the data were processed

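Per the submitters' processing notes, the authors used CASAVA, fastp, STAR and featureCounts with mm10, and neither versions nor the strand setting are named by any source used here. The deposited table of raw counts per gene, not normalized, was used. A deposited FPKM table and the authors' tables of DESeq2 comparisons were not used. The 10 genes and all gene lists were chosen with earlier results of these data known.

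Counts of lung were fitted with edgeR 4.0.16 (quasi-likelihood, TMM scaling, filterByExpr, robust, all 3 genotypes in one fit) in R 4.3.3, and of neutrophils likewise. P-values were adjusted over all genes tested by Benjamini-Hochberg, and genes under 0.05 were called. CPM used TMM effective library sizes. Up to 4 called genes per list were named, those with the smallest p, beside the 10 genes, Ager, called neighbours within 200 kb and the 3 genes nearest in pattern to each of the 3 most variable members, and others are marked where they appear. The script was tested on simulated data. The study describes the libraries of a group as separate mice. DESeq2 1.42.0, other scaling, filters and left-out libraries were alternatives.

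Same-numbered Ager-/- and Ager AHA/AHA lungs deviated together weakly (r = 0.117, 0.139 and 0.167 over genes in 3 pairs), though a pair of different numbers reached 0.150. No source used here says what the numbers mark. The main fit left them out, and a fit with the number as a block was run beside it. The fibroblast sum without Inmt and the look at genes within 2 kb were added after the values were seen.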

Additional observations from a re-analysis of the deposited data

Results flagged for a closer look

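Of 114 groups of 4 lungs examined, 6 held a library far from the other 3, where chance gives about 1 group in 20. Tcf21 in Ager-/- lung 5 was the lowest of its group at 21.95 CPM, with the others at 33.3 to 35.3 CPM. Axin2 in Ager AHA/AHA lung 2 was the lowest at 20.5 CPM, with the others at 25.0 to 25.9 CPM. Meox2 in Ager AHA/AHA lung 1 was the highest at 17.7 CPM, with the others at 11.7 to 12.5 CPM. Slc26a4 in the same lung was the highest at 6.21 CPM, with the others at 1.84 to 2.43 CPM. The sum of airway markers was highest in Ager AHA/AHA lung 2 at 100361 CPM, with the others at 62966 to 66963 CPM. The sum of neutrophil markers was highest in Ager AHA/AHA lung 4 at 352 CPM, with the others at 43.4 to 75.5 CPM.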

How the results depend on the processing

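The log2 fold changes of the 10 genes stayed within the replicate spread in 190 of 190 refits per lung comparison. That spread was the larger SD of log2 CPM among the groups compared. Leaving out 1 library can hardly move a fold change by more, so little is read from this count. Signs changed for Gata6 in 1 of 19 refits for Ager-/- over WT (lowest −0.0103), and for Nkx2-1 in 6 and Tbx4 in 2 for Ager AHA/AHA over WT. Counts of called genes moved more. DESeq2 called 1024 genes for Ager-/- over WT, 961 for Ager-/- over Ager AHA/AHA and 48 for Ager AHA/AHA over WT, where edgeR called 541, 551 and 30, and 21 related genes for Ager-/- over Ager AHA/AHA. A fit of only the groups compared called 6 related genes there. Of the 10 genes, DESeq2 called 7 for Ager-/- over WT (edgeR 4), and a fit of only the groups compared called 4 for Ager-/- over Ager AHA/AHA (7 with all groups). Leaving out 1 library gave 187 to 675, 332 to 781 and 19 to 33 genes in these comparisons, 2 to 13, 4 to 22 and 0 related genes, 0 members in neutrophils and 10 for lung over neutrophils. The lowest came without WT lung 1 (187), Ager-/- lung 5 (332) and WT lung 3 (19). With the replicate number as a block, 437 genes were called for Ager-/- over WT, 477 for Ager-/- over Ager AHA/AHA and 25 for Ager AHA/AHA over WT, and the numbers did not pair the samples in the comparisons with WT. The cause of these moves was not tested. Using the column-name set as a covariate was chosen after seeing the data, and it called 6 of the 10 genes for Ager-/- over WT. Depth limits Hoxb6 most.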
